A study of Mus musculus with 6 samples.

Results

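The genes described here are 10 components of the contractile apparatus of smooth muscle and myofibroblasts, namely Acta2, Tagln, Cnn1, Myl9, Myh11, Actg2, Tpm1, Tpm2, Cald1 and Srf. They were chosen by symbol, and each matched 1 row among the 26898 genes of the expression table. RNA was sequenced from primary mouse embryonic fibroblasts (MEFs) of the C57BL/6 background, in 3 samples labelled wild type (WT, Kansl1 fl/fl, replicates 4, 5 and 8) and 3 labelled knockout (KO, Kansl1 fl/fl/CAG-cre, replicates 3, 7 and 10). Both groups carried the floxed Kansl1 alleles and both received 1 µM tamoxifen for 48 h, so the groups differed in the Cre transgene as well as in Kansl1. The Cre is tamoxifen-inducible and driven by the broadly active CAG promoter, and the effect of Cre itself cannot be told apart from the loss of Kansl1. Kansl1 encodes a scaffold of a histone acetyltransferase complex, and the comparison asks which transcripts differ when it is deleted in primary cells. The labels do not say which embryo each sample came from, so the p-values measure the spread between these samples.

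Fibroblasts placed on rigid plastic with serum take on features of myofibroblasts, the contractile cells of healing wounds and scars. Such cells build stress fibres in which smooth muscle actin, tropomyosin, caldesmon and calponin lie along filaments that myosin pulls on. Many of these genes are switched on by serum response factor (SRF), which binds a short DNA element named the CArG box and works with myocardin-related cofactors that respond to the pool of free actin.

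Promoter sequences of 3 members are shown because they hold the letters that SRF is known to read, in the most abundant member (Acta2), in a myosin light chain (Myl9) and in the factor itself (Srf). They are RefSeq sequences on GRCm38.p6, running 5′ to 3′ from 250 bases before the start listed for each promoter to 50 after it. For these 3 genes that start is not the outer end of the gene span given below but lies inside the span. Distances to the start are counted from the listed promoter start. Capitals mark the CArG box, by name a pair of C, 6 bases that are A or T and a pair of G, or a stretch that departs from it at 1 position. The Acta2 window lies at chr19:34255324-34255623 on the minus strand, the Myl9 window at chr2:156775214-156775513 on the plus strand and the Srf window at chr17:46556113-46556412 on the minus strand.
Acta2: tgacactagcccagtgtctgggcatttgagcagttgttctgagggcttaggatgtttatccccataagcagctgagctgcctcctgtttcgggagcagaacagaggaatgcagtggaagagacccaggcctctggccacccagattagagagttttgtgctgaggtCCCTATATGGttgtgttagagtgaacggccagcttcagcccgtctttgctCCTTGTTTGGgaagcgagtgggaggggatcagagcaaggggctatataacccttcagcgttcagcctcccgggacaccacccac
Myl9: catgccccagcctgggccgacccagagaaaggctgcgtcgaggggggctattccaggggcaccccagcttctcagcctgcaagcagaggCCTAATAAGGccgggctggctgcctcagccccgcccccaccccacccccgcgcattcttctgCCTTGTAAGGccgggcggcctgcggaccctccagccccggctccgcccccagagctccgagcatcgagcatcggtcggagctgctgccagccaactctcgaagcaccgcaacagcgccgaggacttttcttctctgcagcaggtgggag
Srf: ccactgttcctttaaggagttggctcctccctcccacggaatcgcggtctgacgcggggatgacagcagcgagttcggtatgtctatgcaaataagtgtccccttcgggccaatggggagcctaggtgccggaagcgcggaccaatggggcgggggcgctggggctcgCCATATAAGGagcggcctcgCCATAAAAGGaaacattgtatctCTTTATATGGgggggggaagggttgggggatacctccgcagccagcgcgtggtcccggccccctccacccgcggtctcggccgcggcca
The Srf window held 2 exact boxes, beginning 82 and 62 bases before the start, and a near match at 39. The Myl9 window held 1 exact box at 161 bases before the start and a near match at 99. The Acta2 window held only near matches, at 84 and 34 bases before the listed start, and both lie inside the Acta2 gene span given below. The element reads as its own kind on the opposite strand, so both strands were covered by the search. Of all 32851 promoter windows of this length, 1.63% held an exact box and 19.9% held a near match, so near matches are common. Among the other members, Tpm1 had near matches at 221 and 80 bases and Cald1 had 1 at 203 bases in the first of its 2 windows. The Tpm1 match at 80 bases lies inside the Tpm1 gene span given below. The letters were not in the windows of Cnn1 and Tpm2 or in the second Cald1 window. The promoters of Tagln, Myh11 and Actg2 were not analysed here. A match describes the letters of the window and does not show that SRF binds there.

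Levels are given as TPM, the abundance of transcripts scaled to gene length and to the total of each sample, and differences as KO minus WT on the log2(TPM + 1) scale. A gene was called when its adjusted p-value in limma was under 0.005 and its log2 fold change was beyond 0.5 either way, the limits the study used. Whole reads recovered from the TPM values numbered 17655495 in KO 3 to 27718259 in KO 7, and 13679 to 14268 genes reached 1 TPM per sample. The most abundant RNA took 15.5% to 25.6% of all TPM in a sample, which lowers the TPM of every other gene by an amount that differs between samples. Kansl1 itself fell, with a mean of 26.6 ± 2.06 TPM in WT and 14.6 ± 1.04 in KO (SD, n = 3 each), at a log2 fold change of -0.82 (SE 0.11, limma adjusted p = 0.000859), and every KO sample lay below every WT sample. Thus 55.1% of the WT level of Kansl1 remained in the KO samples. In bulk RNA, fewer cells of a type and less RNA per cell cannot be told apart.

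Myh11, the heavy chain of smooth muscle myosin, was the only member that was called, and it fell to 45.0% of its WT level. Acta2, Actg2, Tpm2 and Cnn1 had lower means in KO without reaching the limits, with limma adjusted p-values of 0.0218 to 0.0481, and the level of Srf differed by less than the spread between replicates. All 10 members passed the filter of 1 TPM in at least 1 group. The count was 0 higher and 1 lower, against 1.64% called higher and 9.03% called lower among all 14799 genes tested. At an unadjusted p-value under 0.05 in limma, 6 members were lower and 0 higher, against 27.2% and 12.2% of all genes tested. With limma voom on the recovered reads, 0 members were called higher and 1 lower, again Myh11, against 4.34% and 12.2% of all genes. The adjusted p-value was under 0.05 with a negative change for 5 of the 10 members, against 20.7% of all genes tested, and with a positive change for 0, against 7.14%. That count of 5 fell to 1 (Myh11) without WT 5, KO 3 or KO 10, where the shares of all genes were 14.3%, 15.8% and 15.1%. It was 3 without WT 4 or KO 7 (17.1% and 19.9% of all genes) and 4 without WT 8 (19.1%). It was also 3 after median-of-ratios scaling (23.2%) or with no variance trend (20.2%), 2 after median centring (17.9%), 4 with limma voom (24.3%) and 1 with no filter (9.02%). Where the count was 1 or 2 of the 10 members, it lay near or below the share of all genes. In 7 of the 10 members, every KO sample lay below every WT sample, against 29.9% of all genes, and the groups of the other 3 (Myl9, Cald1 and Srf) overlapped. No member had every KO sample above every WT sample, against 13.3% of all genes. After median-of-ratios scaling the groups were also apart in 7 members, against 29.2% of all genes with every KO sample below and 27.9% with every KO sample above, although Cnn1 and Tpm1 then overlapped and Myl9 and Cald1 did not. The log2 fold change was negative in 10 of 10 members as deposited (57.4% of all genes), in 9 after median-of-ratios scaling, where Srf turned positive, and in 8 after centring each sample on its median, where Srf and Myl9 turned positive.

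**Figure D1:**
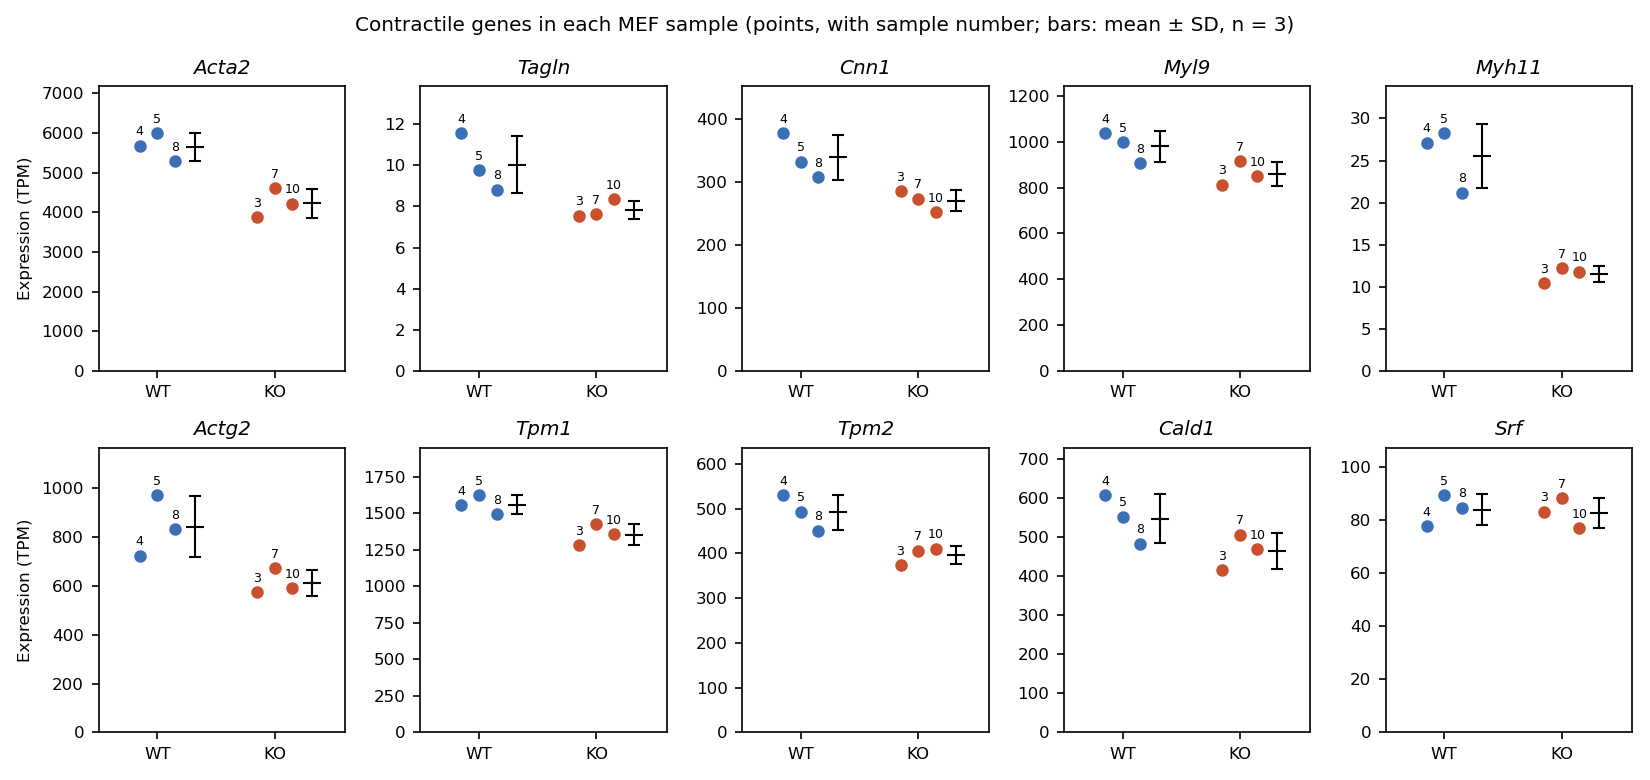
Level of each of the 10 members in TPM, on a linear axis of its own that starts at 0, with points for the 3 WT (blue) and 3 KO (red) samples marked by sample number and bars for the mean ± SD (n = 3). The clearest gap between groups is at Myh11, where WT samples lie between 21.2 and 28.2 TPM and KO samples between 10.4 and 12.2 TPM, while the points of Myl9, Cald1 and Srf overlap.

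Acta2, which encodes the smooth muscle alpha-actin that defines myofibroblasts, is annotated at chr19:34241090-34255590 on the minus strand of mm10. WT samples 4, 5 and 8 held 5681.9, 5990.3 and 5286.2 TPM, against 3875.6, 4606.0 and 4220.3 TPM in KO samples 3, 7 and 10. The highest KO sample, KO 7, stood below the lowest WT sample, WT 8, and the groups stayed apart after median-of-ratios scaling. The mean was 5653 ± 353 TPM in WT and 4234 ± 365 in KO (SD, n = 3 each), and the log2 fold change was -0.42 (SE 0.11, 95% interval -0.67 to -0.17, limma adjusted p = 0.0218). Acta2 thus had an adjusted p-value under 0.05 and was not called. That held after median-of-ratios scaling (limma adjusted p = 0.00474) and with limma voom (0.000692). It did not hold without WT 5 (limma adjusted p = 0.104), KO 3 (0.0749) or KO 10 (0.091), or with no filter (0.239).

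Actg2 encodes the gamma-actin of gut and other visceral smooth muscle and lies at chr6:83512905-83536265 on the minus strand. WT samples 4, 5 and 8 held 722, 971 and 830.1 TPM, against 573, 671 and 590.2 TPM in KO samples 3, 7 and 10. The groups did not overlap, and WT 5 stood well above the other WT samples. The log2 fold change was -0.45 (SE 0.13, 95% interval -0.73 to -0.17, limma adjusted p = 0.0250). Without WT 4 it was -0.56 (limma adjusted p = 0.00754), and with limma voom -0.35 (adjusted p = 0.0280). The adjusted p-value rose above 0.05 without WT 5 (-0.34, limma adjusted p = 0.106), WT 8 (0.0515), KO 3 (0.08) or KO 10 (0.088), after median-of-ratios scaling (0.0552) or median centring (0.0981), and with no filter (0.082).

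The heavy chain gene Myh11 spans chr16:14194535-14291372 on the minus strand, and its exons overlap no other annotated gene. WT samples 4, 5 and 8 held 27.1, 28.2 and 21.2 TPM, against 10.4, 12.2 and 11.8 TPM in KO samples 3, 7 and 10. The KO samples lay close together, and all of them were well under the lowest WT sample, WT 8. The mean was 25.5 ± 3.79 TPM in WT and 11.5 ± 0.944 in KO (SD, n = 3 each), behind which stood 1525 to 1880 recovered reads per WT sample and 576 to 901 per KO sample. The log2 fold change was -1.08 (SE 0.13, 95% interval -1.38 to -0.78, limma adjusted p = 0.000614). It ranged from -1.20 to -0.88 over the 15 alternatives, and the call was lost in only 1 of them, with no filter on the 26898 genes (limma adjusted p = 0.00539).

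Myl9, the regulatory light chain whose phosphorylation starts smooth muscle contraction, lies at chr2:156775420-156781658 on the plus strand. WT samples 4, 5 and 8 held 1035.9, 997 and 906 TPM, against 813, 914 and 851 TPM in KO samples 3, 7 and 10. KO 7 exceeded WT 8, so the groups overlapped as deposited, and they separated after median-of-ratios scaling. The log2 fold change was -0.19 (SE 0.10, 95% interval -0.41 to 0.03, limma adjusted p = 0.191), and it was 0.01 after median centring.

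Tpm1 and Tpm2 encode tropomyosins, the rod proteins that run along actin filaments and set which other proteins may bind. Tpm1, at chr9:67022590-67049406 on the minus strand, had 1555, 1624 and 1493 TPM for WT samples 4, 5 and 8, against 1282, 1422 and 1356 TPM for KO samples 3, 7 and 10. Tpm2, at chr4:43514711-43523765 on the minus strand, had 530.4, 493 and 450.5 TPM for WT, against 374, 406 and 410.3 TPM for KO, in the same order. For both genes every KO sample was below every WT sample, although the Tpm1 groups overlapped after median-of-ratios scaling. For Tpm1 the log2 fold change was -0.20 (SE 0.10, 95% interval -0.42 to 0.01, limma adjusted p = 0.146). For Tpm2 it was -0.31 (SE 0.10, 95% interval -0.53 to -0.08, limma adjusted p = 0.0453). Leaving out any sample but WT 8 took the adjusted p-value above 0.05, to between 0.0819 and 0.138. So did median centring (-0.11, limma adjusted p = 0.141), no filter (0.0879) and no variance trend (0.0852). The adjusted p-value was lower after median-of-ratios scaling (-0.20, limma adjusted p = 0.0194) and with limma voom (0.0125).

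Cald1 and Cnn1 encode caldesmon and calponin, proteins that bind actin and restrain myosin. Cald1, at chr6:34598500-34775473 on the plus strand, had 608, 552 and 483 TPM for WT samples 4, 5 and 8, against 415, 507 and 469 TPM for KO samples 3, 7 and 10. Cnn1, at chr9:22099216-22109630 on the plus strand, had 376, 332 and 307 TPM for WT, against 285, 273 and 252 TPM for KO, in the same order. The Cald1 groups overlapped because KO 7 exceeded WT 8, whereas the Cnn1 groups were apart as deposited and overlapped after median-of-ratios scaling. For Cald1 the log2 fold change was -0.24 (SE 0.12, 95% interval -0.50 to 0.03, limma adjusted p = 0.166). For Cnn1 it was -0.32 (SE 0.11, 95% interval -0.56 to -0.08, limma adjusted p = 0.0481), and leaving out any sample but WT 8 took the adjusted p-value above 0.05, to between 0.0588 and 0.208, as did median-of-ratios scaling (0.125), median centring (-0.13, limma adjusted p = 0.342), limma voom (0.0784), no filter (0.0921) and no variance trend (0.0888).

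Tagln encodes transgelin, an actin-binding protein of the calponin family that is usually abundant in smooth muscle, and lies at chr9:45929619-45936058 on the minus strand. WT samples 4, 5 and 8 held only 11.5, 9.75 and 8.81 TPM, against 7.54, 7.63 and 8.34 TPM in KO samples 3, 7 and 10. These values rested on 166 to 186 recovered reads per WT sample and 109 to 148 per KO sample, and they placed Tagln last among the members. The annotated exons of Tagln overlap the antisense gene Gm48529 on the opposite strand over 1241 bases (62.4% of the exon length of 1988) and Pcsk7 over 108 bases. The library kit did not mark strand, so reads of overlapping genes cannot be told apart, and the part of this overlap in the low level was not tested. Gm48529 was listed at 6.52 ± 0.420 TPM in WT and 5.68 ± 0.987 in KO (SD, n = 3 each). The groups of Tagln did not overlap, with a log2 fold change of -0.31 (SE 0.13, 95% interval -0.60 to -0.03, limma adjusted p = 0.0991).

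Srf encodes the transcription factor itself and lies at chr17:46548329-46556175 on the minus strand. WT samples 4, 5 and 8 held 77.7, 89.4 and 84.6 TPM, against 83.1, 88.2 and 76.9 TPM in KO samples 3, 7 and 10. The groups overlapped throughout, and the mean in KO was 98.6% of that in WT. The log2 fold change was -0.02 (SE 0.10, limma adjusted p = 0.907), and its 95% interval ran from -0.24 to 0.21.

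The members kept the same order of abundance in both groups, from Acta2 through Tpm1, Myl9, Actg2, Cald1, Tpm2, Cnn1, Srf and Myh11 to Tagln. The last place of Tagln is subject to its exon overlap. On this per-length scale, the WT ranges of Myl9 and Actg2 met, as did those of Cald1 and Tpm2, so neither pair can be ordered in WT beyond the spread of the samples. The KO ranges of all neighbours were separate. Summed over the members, WT samples 4, 5 and 8 held 10627, 11087 and 9870.5 TPM, against 7718, 8907 and 8245 TPM in KO samples 3, 7 and 10. This sum is mostly Acta2. WT 8 was the lowest WT sample for 8 members and KO 3 the lowest KO sample for 8. This order is not particular to the members, because the median-of-ratios factors, set by the typical tested gene, follow it. They were 0.9604 in WT 8, against 1.089 and 1.066 in WT 4 and 5. In KO 3 the factor was 0.8722, against 1.045 and 0.9837 in KO 7 and 10. KO 3 also had the fewest reads and the largest share of TPM in a single RNA, and WT 8 the largest such share in WT (24.3%). The part of these in the levels of the members was not tested. The coefficient of variation among replicates ran from 4.20% (Tpm1) to 14.9% (Myh11) in WT, and from 5.04% (Tpm2) to 9.93% (Cald1) in KO.

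Because TPM values depend on the rest of the transcriptome, 7 members were also expressed as a share of their own protein family, a quantity that scaling between samples does not alter. Myh11 made up 3.41%, 3.39% and 3.00% of the summed TPM of Myh11, Myh9, Myh10 and Myh14 in WT 4, 5 and 8, and 1.72%, 1.55% and 1.66% in KO 3, 7 and 10. The smooth muscle heavy chain was thus a small part of the pool in these fibroblasts, and its share was lower in every KO sample. Acta2 made up 28.1%, 31.1% and 29.9% of the 6 actin genes in WT and 24.5%, 26.5% and 25.3% in KO, so its groups were also apart. The share of Actg1, a cytoplasmic actin present in nearly all cells, was higher in every KO sample (31.8% ± 0.576 in WT and 34.8% ± 0.475 in KO, SD, n = 3 each). The level of Actg1 itself did not rise (log2 fold change -0.06). The share of Actb, the other cytoplasmic actin, overlapped between the groups (32.5% ± 1.46 in WT and 34.5% ± 1.22 in KO, SD, n = 3 each). Actin genes are near-identical in their coding sequence, so reads may be divided wrongly between them, and their shares are uncertain to that extent.

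Among the other members, Myl9 took 62.6% ± 0.640 of the summed TPM of Myl9, Myl6, Myl12a and Myl12b in WT. In KO it took 60.7% ± 0.498 (SD, n = 3 each), with no overlap. Myl12b was low, at 1.28 TPM in WT and 1.76 in KO on average. Myl12a and Myl12b share 462 and 739 exon bases with another annotated gene on the same strand, so this share is uncertain to that extent. Within the tropomyosins, Tpm2 took 12.6% to 13.02% in WT and 11.7% to 12.2% in KO. Tpm3 took 7.69% ± 0.201 in WT and 8.96% ± 0.0238 in KO (SD, n = 3 each). The share of Tpm2 was below and that of Tpm3 above in every KO sample, although the log2 fold change of Tpm3 itself was 0.00. The share of Tpm4 overlapped between the groups (39.1% ± 1.52 in WT and 38.1% ± 0.778 in KO, SD, n = 3 each). The groups overlapped for the shares of Actg2 (4.44% ± 0.769 in WT and 3.67% ± 0.170 in KO), Cnn1 (19.2% ± 0.795 and 16.97% ± 1.68) and Tpm1 (40.4% ± 1.97 and 40.95% ± 0.743; SD, n = 3 each). With 3 samples against 3, an exact permutation test of a share cannot give a p-value under 0.1, so these shares are given without one.

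**Figure D2:**
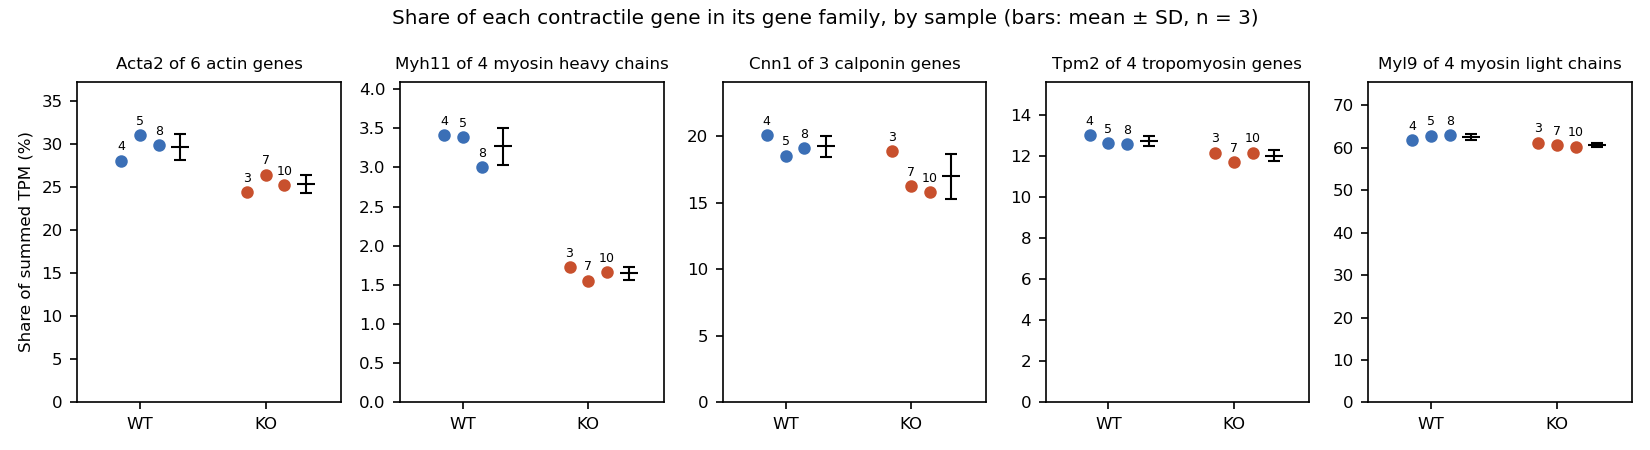
Share of Acta2, Myh11, Cnn1, Tpm2 and Myl9 in the summed TPM of their gene families, in percent on axes that start at 0, with points for the WT (blue) and KO (red) samples marked by sample number and bars for the mean ± SD (n = 3). The shares of Acta2, Myh11, Tpm2 and Myl9 are lower in every KO sample, and those of Cnn1 overlap.

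The relatives of the members that act in the cytoskeleton of most cells, or in other muscles, were compared in the same way. Of 16 listed, 14 were tested and 0 were called in limma, against 9.03% of all genes called lower and 1.64% called higher. With an unadjusted limma p-value under 0.05, 2 were lower and 0 higher, against 27.2% and 12.2% of all genes. By limma voom 0 were called, against 12.2% lower and 4.34% higher among all genes. Their median log2 fold change was -0.09, beside -0.31 for the members and -0.07 for all genes tested. After median-of-ratios scaling the medians were 0.01, -0.21 and 0.02, and after median centring 0.10, -0.11 and 0.13. Tagln2, the transgelin of non-muscle cells, was the nearest to a call, at 1221 ± 65.0 TPM in WT and 958 ± 64.9 in KO (SD, n = 3 each), with a log2 fold change of -0.35 (limma adjusted p = 0.0267). Tagln2 was thus listed far above Tagln, whose low level is subject to the exon overlap given above. The cytoplasmic actins Actb and Actg1 had log2 fold changes of -0.11 and -0.06, with WT means of 6199 and 6054.5 TPM. The non-muscle heavy chains Myh9 and Myh10 stood at -0.09 and -0.26, and Tpm3 and Tpm4 at 0.00 and -0.26. The calponins Cnn2 and Cnn3 stood at -0.15 and 0.03, and the light chains Myl6, Myl12a and Myl12b at -0.10, 0.03 and 0.27. The striated muscle actins Acta1 and Actc1 stood at -0.09 and 0.46, with Actc1 at 0.879 and 1.66 TPM, and Tagln3 and Myh14 did not pass the filter.

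**Figure D3:**
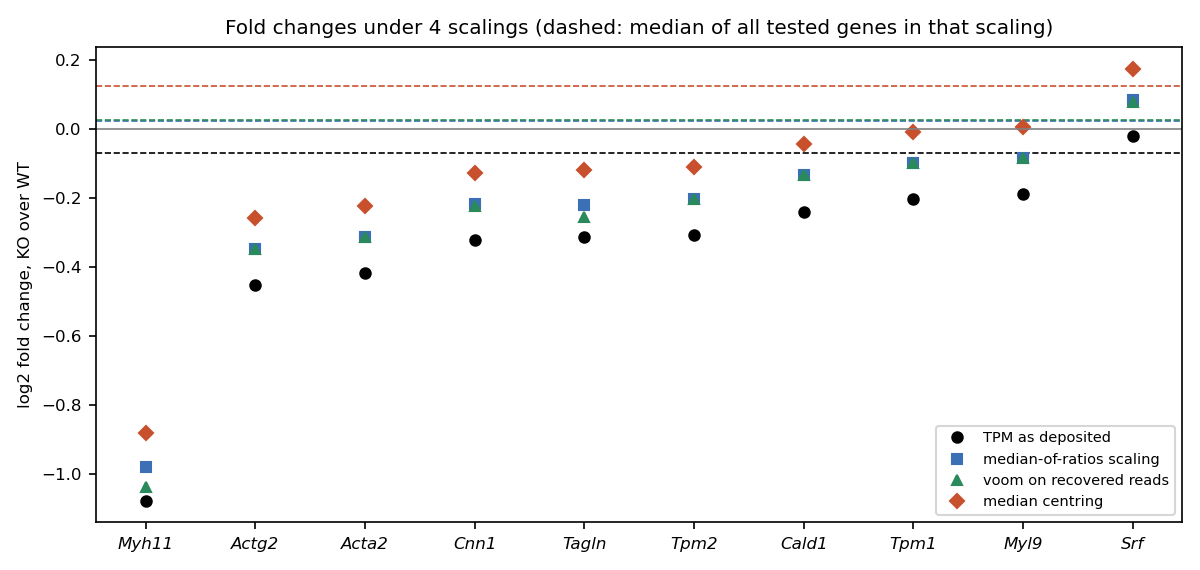
Log2 fold change (KO over WT) of each member with TPM as deposited (black circles), after median-of-ratios scaling (blue squares), with limma voom on recovered reads (green triangles) and after median centring (red diamonds), with dashed lines at the median of all tested genes in each. Myh11 is the lowest member in all 4, Srf is above 0 in each but the deposited scale, and Myl9 is above 0 only after median centring.

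A wider list of 18 smooth muscle genes held 2 that fell and 0 that rose among 17 tested, with a median log2 fold change of -0.18. Among all genes tested 9.03% fell, so a count of 2 is near the background. At a limma adjusted p-value under 0.05, 6 of the 17 were lower and 0 higher, against 20.7% and 7.14% of all genes. In 7 of the 17, every KO sample lay below every WT sample, against 29.9% of all genes. Kcnmb1, the beta subunit of the calcium-activated potassium channel of smooth muscle, had 9.28, 9.80 and 8.15 TPM for WT samples 4, 5 and 8, against 2.95, 3.20 and 2.86 TPM for KO samples 3, 7 and 10. Its log2 fold change was -1.33 (SE 0.13, limma adjusted p = 0.000254), larger in size than that of Myh11. Nexn, which encodes the actin-binding protein nexilin, had 67.5, 63.6 and 54.5 TPM for WT, against 33.7, 39.8 and 36.8 TPM for KO, with a log2 fold change of -0.73 (SE 0.11, limma adjusted p = 0.00175). Both genes were separated between the groups in all samples, and 287 bases of the Nexn exons are shared with the gene Gm43185 on the same strand. The call of Nexn was lost without WT 5, KO 3 or KO 10 (limma adjusted p = 0.00671 to 0.00788), with no filter (0.0082) and with no variance trend (0.0052). The 3 most abundant genes of the list were Flna, Csrp1 and Actn1, which organise and crosslink actin filaments, and their log2 fold changes were -0.13, -0.20 and -0.18. None of the 3 was called. Mylk, the kinase that phosphorylates Myl9, measured 7.02 TPM in WT and 4.08 in KO on average (log2 fold change -0.65, limma adjusted p = 0.0111), and was picked out after its values were seen. It was called by limma voom.

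**Figure D4:**
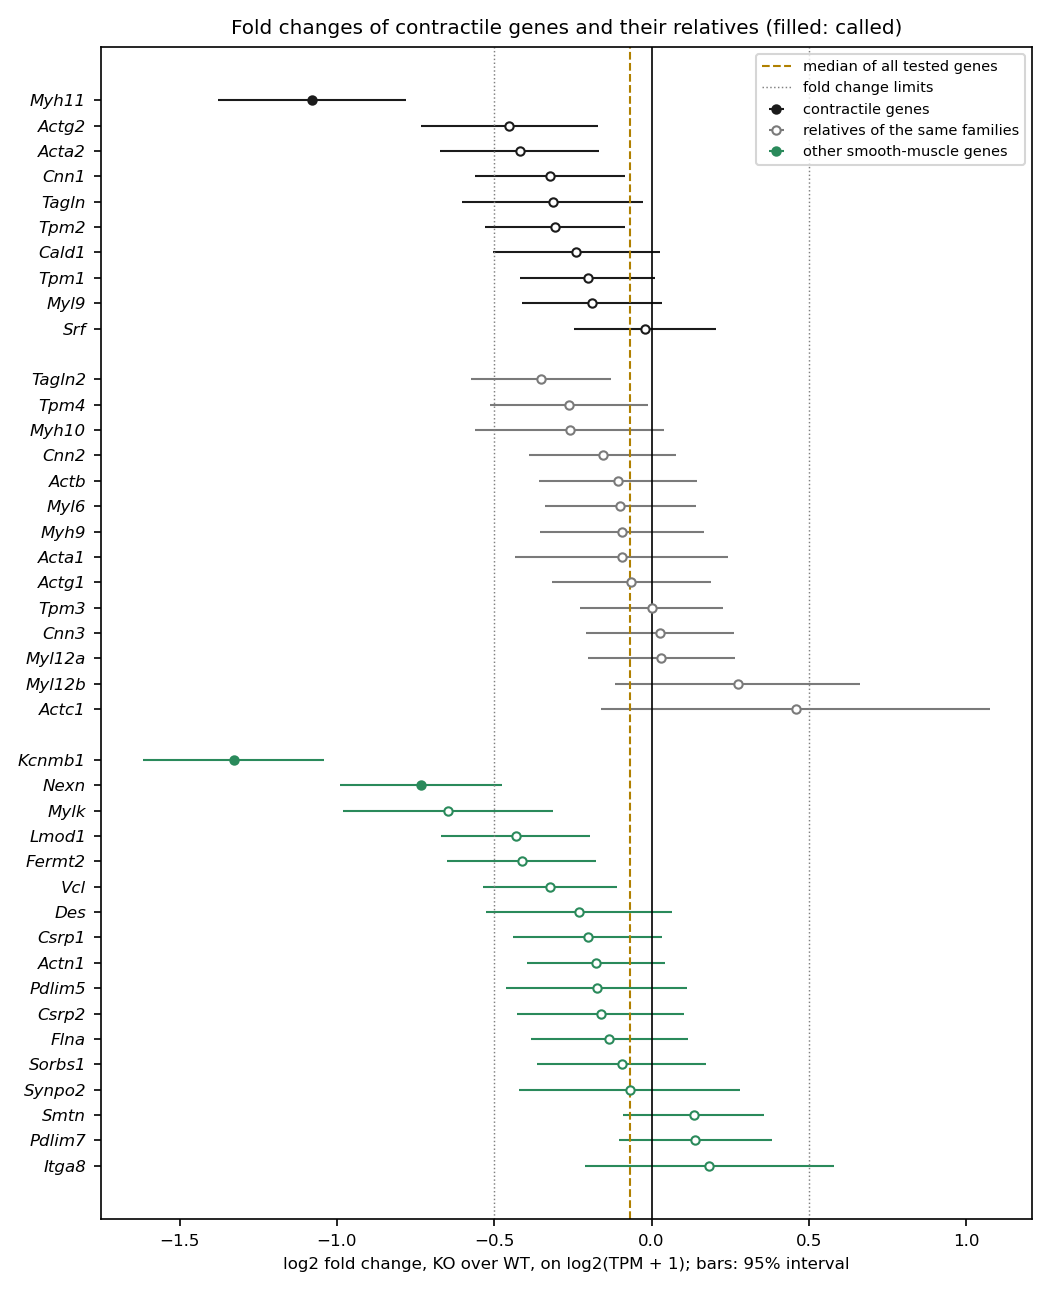
Log2 fold change (KO over WT, log2(TPM + 1) scale) of the 10 members (black), the 14 tested relatives of their families (grey) and the 17 tested other smooth muscle genes (green), with points for the limma estimate, filled where called, bars for the 95% interval, dotted lines at the limits of 0.5 and a dashed line at the median of all tested genes. Myh11, Kcnmb1 and Nexn are filled at -1.08, -1.33 and -0.73, the other 9 members lie between -0.45 and -0.02 as deposited, and the signs of Srf and Myl9 depend on the scaling.

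Among SRF cofactors and regulators, 0 of 10 tested were called in limma, against 9.03% of all genes called lower and 1.64% called higher. At an unadjusted p-value under 0.05 limma gave 1 lower and 2 higher, against 27.2% and 12.2% of all genes. The median log2 fold change was -0.02. The 3 most abundant were Fhl1, Fhl2 and Mical2, at -0.24, -0.03 and -0.01. Myocd, which encodes the smooth muscle cofactor myocardin, was near the filter at 1.24 ± 0.393 TPM in WT and 0.763 ± 0.127 in KO (SD, n = 3 each), with a log2 fold change of -0.33 (limma adjusted p = 0.267). Mrtfb, a myocardin-related cofactor, stood at 12.9 and 16.6 TPM (0.34, limma adjusted p = 0.0366), and Elk4, a ternary complex factor that binds beside SRF, at 14.8 and 20.6 TPM (0.45, limma adjusted p = 0.0305). Elk4 was called higher by limma voom and after median-of-ratios scaling or median centring, and Mrtfb after median centring. Myocd, Mrtfb and Elk4 were picked out after their values were seen. Of the immediate early genes that SRF also serves, 0 of 9 tested were called, 0 had an unadjusted limma p-value under 0.05, and limma voom called 0. Of all genes, 27.2% were lower and 12.2% higher at that unadjusted p-value in limma. The most abundant of them, Ccn1, Junb and Ier2, stood at -0.16, 0.00 and -0.22.

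Of the upstream signals that drive myofibroblast genes, 3 further lists are described. Of 21 TGF-beta signalling genes, 0 were called, while 3 had a positive change with an unadjusted p-value under 0.05, where 12.2% of all genes tested did, and the median was 0.12. The most abundant, Ltbp2, Tgfb3 and Ltbp1, stood at 0.13, -0.17 and -0.11. The receptor Tgfbr2, picked out after its values were seen, stood at 34.8 and 46.9 TPM (0.42, limma adjusted p = 0.0197) and was called higher by limma voom and after median-of-ratios scaling or median centring. Median centring also called Ski and Smurf1 higher.

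Of 20 TGF-beta target genes tested, 0 were called in limma and 0 by limma voom, and the median was 0.02. Of all genes, 9.03% were called lower and 1.64% higher in limma. At an unadjusted limma p-value under 0.05, 2 were lower and 1 higher, against 27.2% and 12.2% of all genes. Without WT 4, limma called Timp3 higher. Of the most abundant, Thbs1 and Col1a1, which encode matrix proteins, stood at 0.00 and 0.19. Of 8 target genes of YAP tested, 2 fell and 0 rose, where 9.03% of all genes tested fell, with a median of -0.25. Ankrd1, a nuclear ankyrin repeat protein used as a readout of YAP, fell by 0.90 on the log2 scale (SE 0.15, limma adjusted p = 0.00239), and Birc5, which acts in mitosis, fell by 0.75 (SE 0.13, limma adjusted p = 0.00309). Ankrd1 lost its call after median-of-ratios scaling (-0.80, limma adjusted p = 0.00892), after median centring (-0.70, 0.0142) and without any 1 of the KO samples (0.00741 to 0.00931). Birc5 lost its call without any 1 sample other than WT 8 (limma adjusted p = 0.00543 to 0.0119), and both lost it with no filter or no variance trend. The most abundant of this list, Ccn1, Ccn2 and Axl, stood at -0.16, -0.44 and -0.29.

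The fibroblast label was checked against marker genes. Col1a1 lay at 3080 to 5809 TPM and Vim at 2212 to 2522 TPM over the 6 samples, Col1a2 averaged 1433 TPM in WT and 1335 in KO, while Dcn and Lum, matrix genes of many fibroblasts, lay under 10 TPM. Of 8 fibroblast markers, 0 were called in limma and 0 by limma voom, while 1 had an unadjusted p-value under 0.05. Of 6 skeletal muscle markers in the table, Myod1, Myog, Myh3, Ttn and Ckm lay under 1 TPM in every sample, while the actin gene Acta1 lay at 249 to 363 TPM. Of 6 cardiac markers, Myh6, Myh7, Nkx2-5 and Tnni3 lay under 1 TPM, Tnnt2 at 1.66 to 3.39 TPM and Actc1 at 0.634 to 2.17 TPM. Of the endothelial markers, Pecam1, Cdh5 and Tek lay under 1 TPM as well, while Kdr stood at 1.01 ± 0.435 TPM in WT and 1.90 ± 0.191 in KO (SD, n = 3 each), higher in every KO sample, and was called by limma voom but not by limma (adjusted p = 0.0768). Of the epithelial markers, Epcam and Cdh1 lay under 1 TPM, while Krt8 (1.45 and 2.70 TPM on average, limma adjusted p = 0.0446) and Krt18 (41.2 and 53.5 TPM, limma adjusted p = 0.0741) were higher in every KO sample without being called. The most abundant macrophage markers were Cd68, C1qa and Tyrobp. The summed level of 6 macrophage markers was 11.04 to 15.5 TPM in WT and 21.6 to 41.1 TPM in KO. All 5 that were tested were higher in every KO sample (13.3% of all genes) and had an unadjusted p-value under 0.05 in limma (12.2%). Their limma adjusted p-values, 0.00632 to 0.0249, were also under 0.05, as for 7.14% of all genes with a positive change. At the limits used, limma and limma voom called 0 of them, and limma called Cd68 higher without KO 3. Of the markers of pericytes, which also express Myh11 and Acta2, Notch3 alone was called, and it rose from 3.09 ± 0.690 to 10.4 ± 0.944 TPM (SD, n = 3 each; log2 fold change 1.49, limma adjusted p = 0.000344), while Mcam, Cspg4 and Rgs5, the most abundant of the list, stood at -0.16, 0.37 and 0.45. Median centring also called Cspg4 higher. The summed level of the 6 pericyte genes was 202 to 293 TPM in WT and 235 to 259 TPM in KO. Hence the macrophage sum, Kdr, Krt8, Krt18 and Notch3 were higher in KO where Myh11 was lower, and their part in the result for Myh11 was not tested.

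The pattern of Acta2 over the 6 samples was set against 7738 other genes that averaged 10 TPM or more, by the mean absolute difference of centred log2(TPM + 1) values. The nearest were Acadvl, Plppr2, Erg28, Hps5 and Napg, at differences of 0.010, 0.018, 0.018, 0.019 and 0.022. Among the members, Tpm2 (0.084) and Actg2 (0.090) were nearest to Acta2, and Srf (0.200) and Myh11 (0.330) were farthest. The 5 genes were selected for this likeness, so it is a description.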

How the data were processed

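RNA-seq of 6 MEF samples (3 WT, 3 KO, groups from the labels) was analysed from the expression table. Per the study's methods, the authors prepared libraries with the NEBNext Ultra RNA kit, used STAR for alignment to mm10 and DESeq2 for testing. The submitters' processing notes name Bowtie 0.12.2, and the counting program is not given in the sources used here. The deposited values are TPM per gene, and the authors' own columns of log2 fold changes and p-values between the groups, deposited beside them, were not used. Library depth was recovered as whole reads from TPM and GENCODE M21 exon length (100% whole within 0.05). DESeq2 was not run here, and the recovered reads were fitted with limma voom as an alternative.

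limma 3.58.1 in R 4.3.3 was fitted with a variance trend to log2(TPM + 1) of 14799 genes whose mean reached 1 TPM in either group. Tests were two-sided, with Benjamini-Hochberg adjustment over all tested genes. Alternatives were another pseudocount, filter, scaling, model or threshold, and leaving out each sample. The members and lists were chosen with earlier results of these data known. Genes named beyond the members by rule were the called genes and the 3 most abundant of each list, the relatives, and the 5 genes nearest to Acta2. Of these, 1 gene and 1 list are not reported here. Further marker genes and the genes said to be picked out were named after their values were seen. The pipeline was tested on simulated data.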

Additional observations from a re-analysis of the deposited data

How the results depend on the processing

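Myh11 was called under every alternative except testing all genes, where 0 members were called (log2 fold change -1.08, limma adjusted p = 0.00539). No alternative called a member higher. The genes called higher, 242 as reported, numbered 55 with all genes tested, 473 after median-of-ratios scaling, 885 after median centring, 642 with limma voom, 694 at an adjusted p-value under 0.05, 105 with a log2 fold change limit of 1 and 84 to 252 without 1 sample. The genes called lower, 1337 as reported, numbered 286 with all genes, 2453 at 0.05, 600 with the limit of 1 and 617 to 938 without 1 sample. After median-of-ratios scaling, median centring and limma voom they numbered 1441, 1095 and 1799. The median of all tested genes moved by 0.20 on the log2 scale under median centring.

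The other contractile genes called, 2 as reported, numbered 1 with all genes, when the mean over all samples had to reach 10 TPM, without a variance trend and with the limit of 1, and 1 to 2 without 1 sample, and 3 with limma voom and at 0.05. Calls over every list beside the members, which include those 2 and a list not reported here, were 6 and numbered 2 with all genes, 3 without a variance trend, 12 after median centring, 10 with limma voom, 13 at 0.05, 3 with the limit of 1 and 3 to 6 without 1 sample. Kansl1 (-0.82) missed the limit of 1. Myl9 turned to 0.007 after median centring. Srf turned to 0.0844 after median-of-ratios scaling, 0.0805 with limma voom and 0.176 after median centring, and ranged from -0.0731 to 0.0316 without 1 sample. The cause was not tested. Tagln, Kcnmb1 and Notch3 have no value when the mean over all samples had to reach 10 TPM, a filter that also replaces the one on either group. No paired analysis was possible because the groups share no replicate number.

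Tagln rests on 109 to 186 reads per sample. With 3 samples a group, the 95% intervals of the members other than Myh11 include differences too small to call. The intervals of Acta2, Actg2, Tagln, Cnn1, Tpm2 and Cald1 also reach beyond the limit of -0.5, so a fall of that size is not excluded for them.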
